A study of Mus musculus with 9 samples.

Results

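Il7 and the genes through which cells sense it were followed in sorted stromal cells and in total marrow of the mouse. The members were named by gene: the cytokines Il7 and Tslp, the receptor subunits Il7r, Il2rg and Crlf2, the kinases Jak1 and Jak3, and the transcription factors Stat5a and Stat5b. Of the 9 named genes, 7 had a row of their own on the array, out of 19938 genes with such a row. Il2rg was not analysed here. The only row for Jak3 is shared with Insl3 and could not be assigned to either gene.

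Interleukin 7 is made by stromal cells of the bone marrow and is required in the mouse for the growth and survival of early B and T lymphoid cells. It binds a receptor of Il7r and the common gamma chain Il2rg, which bring Jak1 and Jak3 together so that they phosphorylate Stat5a and Stat5b. The related cytokine Tslp uses Il7r with Crlf2 instead. The STAT5 proteins are shared with many other receptors, including those for growth hormone and several haematopoietic cytokines.

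The samples formed 4 groups on 9 Affymetrix mouse Gene ST 1.0 arrays. The YFP+ group (3 arrays) held CD45-Lin-YFP+CD54+BP1+ bone marrow cells from IL7-Cre Transgenic/Rosa-eYFP hetero mice of strain C57Bl/6J. The YFP- group (1 array) held the YFP- cells of the CD45-Lin-CD54+BP1+ gate, 2300 cells, from mice of that genotype. The wild-type group (3 arrays) held CD45-Lin-CD54+BP1+ cells from C57Bl/6J wild-type mice with no transgene. Mice for sorting were 6 to 12 weeks old, and the YFP+ and wild-type samples held 1800 to 10000 cells. Total marrow (2 arrays, 10 ng of RNA each) came from unsorted marrow cells of young adult C57Bl/6 wild-type mice. A Cre driven by Il7 sequences leaves YFP on in any cell where it was once active, so YFP records past as well as present activity. The labels do not say whether replicates came from separate animals or pools, so p-values measure the spread between these samples, which may be technical.

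The values are log2 signals. The medians of the 8 other arrays lay between 4.51 and 4.60, and that of the YFP- array was 3.46, so the 3 comparisons with it were made after the 9 arrays had been brought together by cyclic loess. Sort genes followed the gate: Icam1 (CD54) was 1.16 and 1.06 log2 units higher in YFP+ and wild-type cells than in total marrow, Enpep (BP1) 2.71 and 3.31 higher, and Ptprc (CD45) lower (−5.97 and −6.07). All 10 reticular stroma markers were called higher in both sorted groups, with a summed linear signal of 19785.5 to 26770.4 in the 7 sorted arrays against 286 to 341.6 in total marrow. Summed myeloid markers were 4088.8, 1343.3 and 323.4 in the YFP+ arrays and 1171.7, 230.8 and 171.1 in the wild-type arrays, against 21551.6 to 21976.9 in total marrow. Endothelial markers summed to 80.2 to 93.7 in sorted arrays against 127.5 to 152.8 in marrow, and erythroid markers to 81.5 to 282.6 against 2018.4 to 2427.8.

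Promoter sequences from RefSeq (GRCm38.p6), each running from 250 bases before to 50 bases after a start site, were found for 5 of the 7 measured members, in 7 windows. None was found for Il7 or Tslp. The stretch of the Il7r promoter that holds its STAT match is shown because Il7r had the wider difference between groups of the 2 receptor subunits measured. Capitals mark matches to the STAT motif TTCNNNGAA and the ETS motif CAGGAA, which do not overlap here. It lies at chr15:9529942-9530126 on the minus strand and is written 5′ to 3′.
Il7r: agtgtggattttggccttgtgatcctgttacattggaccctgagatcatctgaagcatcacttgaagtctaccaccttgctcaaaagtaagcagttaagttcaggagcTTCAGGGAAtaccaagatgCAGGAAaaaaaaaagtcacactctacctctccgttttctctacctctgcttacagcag
Searched on both strands, the STAT motif stood in 1 of the 7 member windows and in 8.30% of all 32851 windows. The ETS motif stood in 5 of the 7 and in 30.6% of all, RUNX (TGTGGT) in 3 and 16.8%, and FOXO (GTAAACA) in 0 and 3.65%. The windows with ETS include all those of Stat5a and Stat5b, genes of common origin, so the 7 windows are not independent. A match describes the letters of the window and is not a binding site.

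Stat5a and Stat5b are neighbouring genes of common origin. The stretch shown was chosen as the most alike among all ungapped 50-base pairs at nearby positions before the start sites of their windows. Its identity is thus a maximum and does not measure how alike the windows are as a whole. A window upstream of one start site of each holds a 50-base stretch that is identical at 45 positions (90%), with the 5 differing bases in capitals. The Stat5a stretch lies at chr11:100860418-100860467 on the plus strand and the Stat5b stretch at chr11:100822578-100822627 on the minus strand.
Stat5a: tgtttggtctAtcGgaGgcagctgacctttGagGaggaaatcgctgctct
Stat5b: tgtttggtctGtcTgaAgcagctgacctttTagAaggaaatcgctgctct
Each stretch lies before the start site of its own window, but downstream of the start site of the gene's other window. It says nothing of the array's probes.

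**Figure D1:**
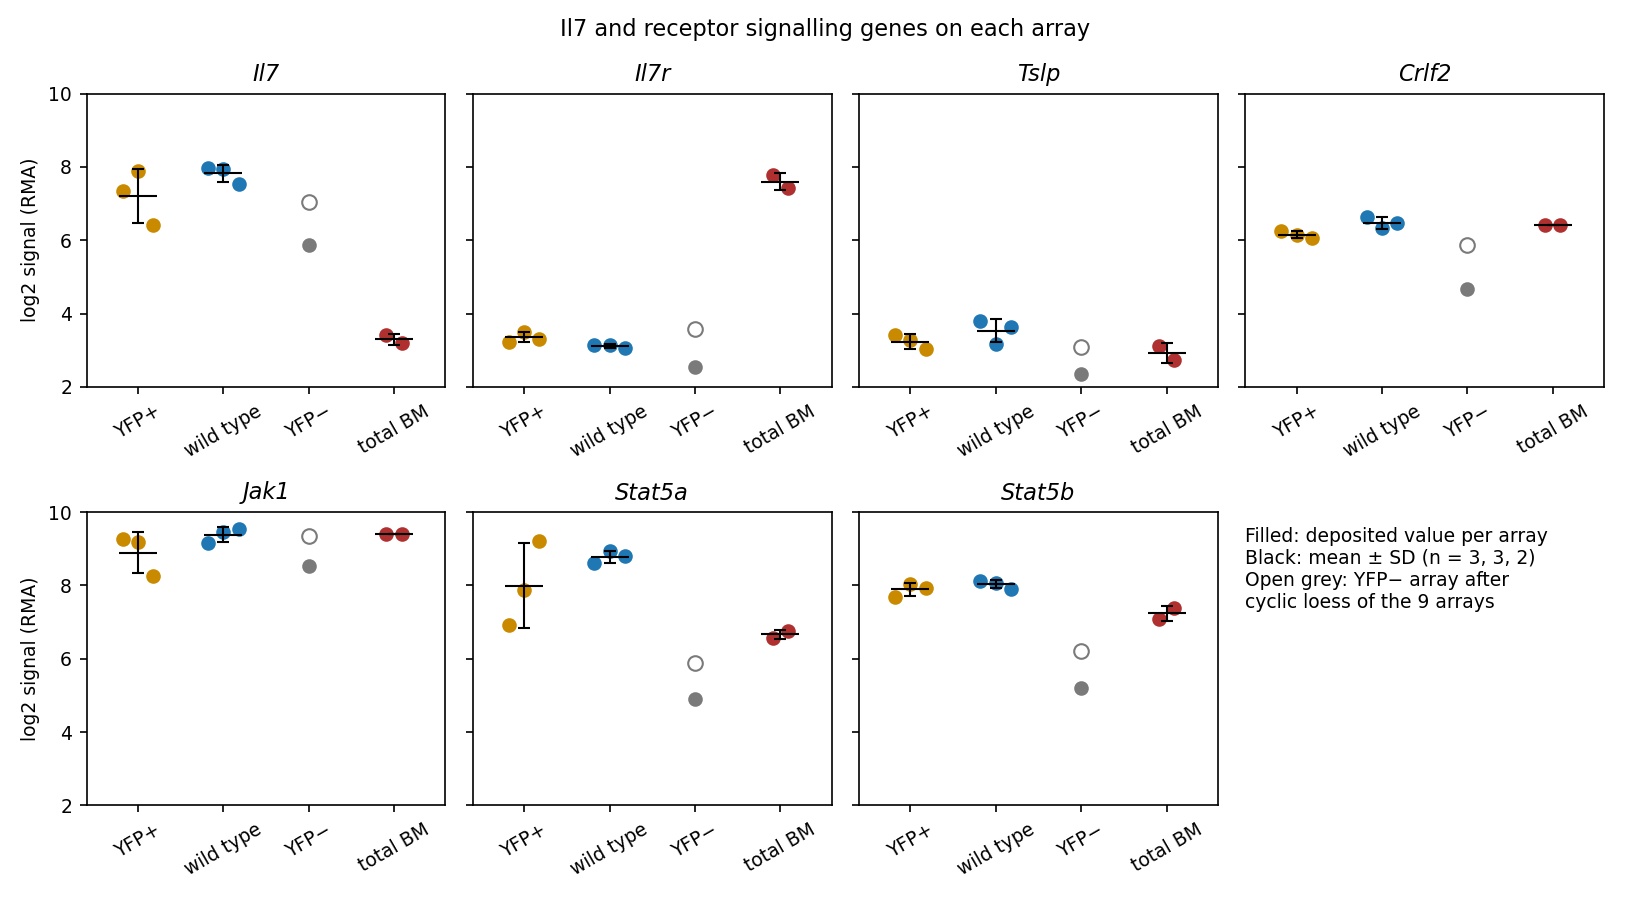
Deposited log2 signal of the 7 measured members on each of the 9 arrays, by group, with black bars for mean ± SD (n = 3, 3 and 2) and an open grey point for the YFP- array after cyclic loess. Il7 stood at 6.41 to 7.97 in YFP+ and wild-type cells and at 3.19 and 3.40 in total marrow, and Il7r showed the reverse, with 7.43 and 7.77 in total marrow.

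The first question was which members set the sorted stromal cells apart from the marrow as a whole. Il7 was strongly higher and Il7r strongly lower in both sorted groups, Stat5b was moderately higher in both, and Stat5a was called higher in wild-type cells. In YFP+ cells 3 of the 7 members were called (2 higher, 1 lower) at an adjusted p under 0.05 in limma, where 29.5% of all 21789 rows were called, 11% higher and 18.5% lower. In wild-type cells 4 were called (3 higher, 1 lower), where 24.3% of rows were called, 10.4% higher and 13.9% lower. The median difference of the 7 was 0.31 in YFP+ and 0.61 in wild-type cells, against 0.09 and 0.00 over all rows. Both medians are the values of Tslp, which was not called and whose level the arrays do not resolve. They therefore do not show a shift of the members as a set. Both comparisons use the same 2 total marrow arrays. In bulk samples, fewer cells of a type and less RNA per cell cannot be told apart.

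Among the ligands, Il7 had deposited log2 values of 7.34, 7.87 and 6.41 in the YFP+ arrays, 7.97, 7.95 and 7.54 in the wild-type arrays, and 3.40 and 3.19 in total marrow. Every sorted array lay above both marrow arrays, and the third YFP+ array was the lowest of the sorted 6. The difference was 3.91 (SE 0.38, 95% interval 3.02 to 4.80, adjusted p 0.000180) for YFP+ and 4.52 (3.63 to 5.42, adjusted p 7.24e-05) for wild-type cells. The marrow values lay below 4.43, the median of all deposited values, so the size is better read as a lower bound.

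Tslp, the other ligand of an Il7r-containing receptor, read 3.41, 3.28 and 3.02 in YFP+ cells, 3.81, 3.18 and 3.62 in wild-type cells, and 3.12 and 2.74 in total marrow. YFP+ cells overlapped marrow and wild-type cells did not, but every array lay below 4.43, so the arrays do not resolve its level. Its differences were 0.31 (−0.21 to 0.82, adjusted p 0.332) and 0.61 (0.09 to 1.13, adjusted p 0.0944), neither called. For wild-type cells it passed with a variance prior that follows signal (adjusted p 0.048) and without wild-type array 2 (adjusted p 0.034).

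Among the receptor subunits, Il7r read 3.24, 3.50 and 3.32 in YFP+ cells, 3.13, 3.14 and 3.05 in wild-type cells, and 7.77 and 7.43 in total marrow. All sorted arrays were below 4.43 and both marrow arrays far above it. Il7r fell by 4.25 (SE 0.14, adjusted p 5.27e-07) in YFP+ and by 4.49 (adjusted p 3.77e-07) in wild-type cells relative to marrow, sizes better read as lower bounds because the sorted values lie that low. Il7r is carried by lymphoid precursors and T cells, and summed markers of both lineages moved the same way. The 13 measured B lineage markers other than Ebf1 summed to 176.3 to 262.9 in the 6 arrays against 6526.5 and 6627 in marrow. Ebf1 went the other way, with 9.33 to 10.05 in the 6 arrays against 8.44 and 8.51 in marrow. It was the 1 B lineage marker of 14 called higher, in both groups, and the other 13 were called lower. The 12 T, NK and innate lymphoid markers summed to 153.4 to 170.9 against 943.6 and 954.6. The B cell receptor gene Cd79a stood at 3.13 to 4.11 in sorted YFP+ and wild-type arrays and at 9.47 and 9.49 in marrow. The part of these cells in the Il7r difference was not tested.

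Crlf2, the subunit that pairs with Il7r to bind Tslp, read 6.26, 6.13 and 6.07 in YFP+ cells, 6.64, 6.33 and 6.46 in wild-type cells, and 6.41 and 6.42 in marrow. YFP+ arrays lay below marrow, and wild-type arrays lay on both sides of it. The differences were −0.26 (−0.57 to 0.04) and 0.06 (−0.25 to 0.36), with adjusted p of 0.174 and 0.850.

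The kinase Jak1, used by many cytokine receptors, read 9.25, 9.18 and 8.24 in YFP+ cells, 9.15, 9.46 and 9.54 in wild-type cells, and 9.40 and 9.41 in marrow. The third YFP+ array stood apart below the rest. Neither difference was called: −0.51 (−1.20 to 0.18) for YFP+ and −0.02 (−0.71 to 0.68) for wild-type cells. The row shared by Jak3 and Insl3 read 6.05 to 6.58 in YFP+, 6.12 to 6.43 in wild-type and 5.86 to 6.12 in marrow arrays. In the YFP- array it read 5.24 after loess, −1.09 from YFP+ (adjusted p 0.065) and −0.82 from wild type (adjusted p 0.117), and it was not called in any of the 6 comparisons.

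Of the transcription factors, Stat5b read 7.69, 8.04 and 7.93 in YFP+ cells, 8.11, 8.08 and 7.90 in wild-type cells, and 7.09 and 7.39 in marrow. The sorted arrays lay within a narrow band above both marrow arrays. Stat5b rose by 0.65 (SE 0.15, 0.29 to 1.01, adjusted p 0.0162) in YFP+ and by 0.79 (0.43 to 1.15, adjusted p 0.00737) in wild-type cells. The YFP+ call was lost with a variance prior that follows signal (adjusted p 0.066), and both were lost without marrow array 1 (adjusted p 0.142 and 0.077).

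Stat5a varied far more among the YFP+ arrays, at 6.91, 7.87 and 9.20, than among wild-type arrays, at 8.60, 8.93 and 8.80, or in marrow, at 6.57 and 6.75. All sorted arrays lay above marrow, but YFP+ array 1 by little. The YFP+ difference of 1.33 (SE 0.56, 0.03 to 2.63, adjusted p 0.116) was not called; it was called without YFP+ array 1, at 1.87 (adjusted p 0.0128), and with array quality weights, at 1.12 (adjusted p 0.047), and without YFP+ array 3 it was 0.73 (adjusted p 0.127). The wild-type difference of 2.11 (0.81 to 3.42, adjusted p 0.0284) was called. It kept its size, 2.02 to 2.21, but lost the call when any 1 wild-type or marrow array was left out (adjusted p 0.062 to 0.160), and with all rows of the file tested (adjusted p 0.051).

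**Figure D2:**
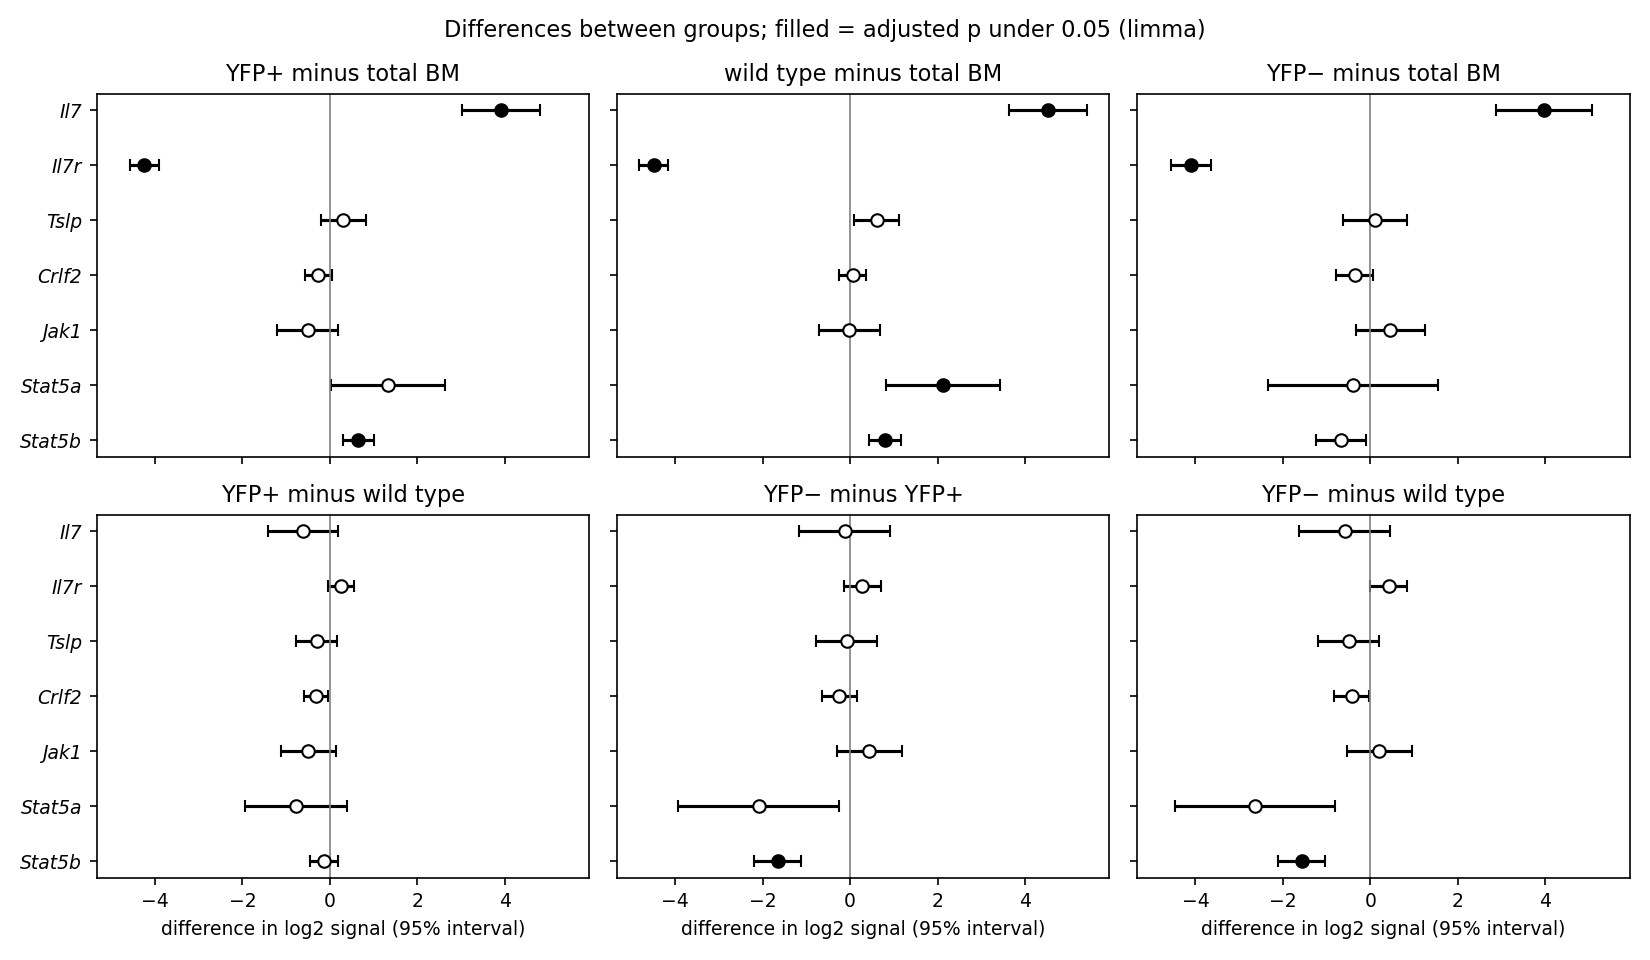
Log2 difference of each of the 7 members in the 6 comparisons, with 95% intervals from limma and filled symbols for an adjusted p under 0.05. Against total marrow the Il7 intervals lie above 0 and the Il7r intervals below 0 in all 3 sorted groups, whereas no member was called between YFP+ and wild-type cells.

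The second question was whether cells marked by Il7-Cre activity differ from the whole CD54+BP1+ gate of wild-type mice. In limma 0 of 21789 rows (0%) were called between YFP+ and wild-type cells, including all 7 members, while 3250 rows had an unadjusted p under 0.05. Il7 itself was not higher in the YFP+ arrays: the mean was 7.21 ± 0.74 (SD, n = 3) against 7.82 ± 0.24 (SD, n = 3), a difference of −0.61 (−1.41 to 0.19), with overlapping groups. The Il7 difference was −0.21 without YFP+ array 3 and −0.95 without YFP+ array 2. YFP+ array 3 also had the lowest quality weight of all arrays (0.31). Il7r (0.25, −0.05 to 0.54) and Crlf2 (−0.32, −0.59 to −0.05, adjusted p 0.300) were the 2 members of 7 whose 3 arrays did not overlap between the groups, as was so for 21.8% of all rows, and all 6 Il7r values lay below 4.43. The difference was −0.78 (−1.94 to 0.38) for Stat5a and −0.14 (−0.46 to 0.18) for Stat5b. For Stat5a it was −1.38 without YFP+ array 3 (adjusted p 0.166) and −0.24 without YFP+ array 1 (adjusted p 0.704). The Stat5a interval spans changes of more than 1 log2 unit, so a difference of that size was not resolved. The 2 groups also differ in genotype and transgene, which cannot be told apart from YFP status.

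The third question was how the YFP- cells of the same gate compare, with 1 array and no replicate of its own. The model assumes that this array varies like the other groups. Il7 was present in YFP- cells at 7.03 after loess, inside the YFP+ values of 7.23, 7.79 and 6.45 and below the wild-type values of 7.80, 7.68 and 7.37, while marrow read 3.14 and 2.98. After loess, the YFP- difference from marrow was 3.97 (2.86 to 5.07, adjusted p 0.00076). It was −0.13 (−1.17 to 0.92) from YFP+ and −0.58 (−1.63 to 0.46) from wild type, neither called. As deposited, Il7 was called lower than in YFP+ (−1.34) and wild type (−1.95), where the median of all rows was −0.91 and −0.88. The difference from YFP+ was −0.23 with quantile normalization and −0.28 with median centring, neither called. The likeness of Il7 between YFP- and YFP+ cells thus depends on rescaling the arrays, but held under each rescaling tried. Il7r in YFP- cells read 3.59, against 7.88 and 7.51 in marrow, a difference of −4.11 (−4.56 to −3.65, adjusted p 6.79e-06). It was 0.28 and 0.42 above the YFP+ and wild-type means, neither called. All sorted values of Il7r lay below 4.43, and as deposited the differences were −0.80 and −0.55. With quantile normalization the difference from YFP+ was 0.03, so the arrays do not resolve a rise. The summed B lineage markers without Ebf1, after loess, were highest among sorted arrays in this one (310.4), with 0 of 14 B lineage markers called against either sorted group. The T, NK and innate lymphoid markers summed to 227.7, and to 145.4 without Thy1 against 132.8 to 143.7 in the other sorted arrays; Thy1 was the 1 of those 12 called higher. The part of these cells in the Il7r values was not tested. Against marrow, 2 of the 7 members were called (1 higher, 1 lower), where 26.2% of rows were called, 12.6% higher and 13.6% lower.

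Stat5b was called lower in the YFP- array than in the other sorted groups, and Stat5a was not called. Stat5b read 6.20 in YFP- cells after loess, against 7.58, 7.97 and 8.04 in YFP+, 7.91, 7.73 and 7.69 in wild-type, and 6.69 and 7.06 in marrow. It was the lowest of all 9 arrays. Stat5b fell by 1.66 (SE 0.23, −2.19 to −1.13, adjusted p 0.0172) relative to YFP+ and by 1.57 (−2.11 to −1.04, adjusted p 0.0193) relative to wild-type cells. It was the 1 member called of 7 in each, where 4.1% of rows were called against YFP+ (2.71% higher, 1.39% lower) and 4.62% against wild type (2.89% higher, 1.73% lower). The first call was lost when only the arrays of the 2 groups were fitted (adjusted p 0.226), and the second without wild-type array 1 or 2 (adjusted p 0.054 and 0.052). Against marrow the difference was −0.67 (−1.23 to −0.11, adjusted p 0.0827), not called. It was called as deposited (−2.04, adjusted p 0.000171), with median centring (−1.09, adjusted p 0.00414), with only the arrays of the 2 groups (adjusted p 0.045) and with array quality weights (adjusted p 0.048).

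Stat5a read 5.88 in YFP- cells, against 6.80, 7.80 and 9.31 in YFP+, 8.39, 8.58 and 8.59 in wild-type, and 6.15 and 6.42 in marrow. It too was the lowest array. The differences of −2.09 (−3.92 to −0.26, adjusted p 0.178) from YFP+ and −2.64 (−4.47 to −0.80, adjusted p 0.105) from wild type were not called. The first was called without YFP+ array 1, at −2.68 (adjusted p 0.047), and was −1.42 without YFP+ array 3 (adjusted p 0.086). The second was called with each array centred on its median (adjusted p 0.037), with only the arrays of the 2 groups (adjusted p 0.044) and with array quality weights (adjusted p 0.027). As deposited, both Stat5a differences were called (−3.11 from YFP+ and −3.89 from wild type), where the median of all rows was −0.91 and −0.88. The YFP- array also had the low deposited median of 3.46, and the part of that in the STAT5 differences was not tested.

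Jak1, Crlf2 and Tslp gave no call in the 3 comparisons with the YFP- array. Their loess values there were 9.35 for Jak1, 5.86 for Crlf2 and 3.08 for Tslp. Crlf2 was the lowest of the 9 arrays, −0.24 from YFP+, −0.43 from wild type and −0.35 from marrow. With each array centred on its median, Crlf2 was called lower than in wild type (−0.87, adjusted p 0.029) and marrow (−0.80, adjusted p 0.016). As deposited it was called in all 3 comparisons (−1.49, −1.81 and −1.75), and Tslp against YFP+ and wild type (−0.87 and −1.17). Jak1 was 0.44, 0.20 and 0.46 higher in the same order, and as deposited all 3 of these differences were negative.

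The rest of the pathway was described through lists of its other genes, each against total marrow. Of the 5 other gamma-chain cytokines (Il2, Il4, Il9, Il15 and Il21) 0 were called in either sorted group. Il2, Il4, Il9 and Il21 lay below 4.43 on every array, so the arrays do not resolve their levels. Il15, which supports NK cells, varied from 5.45 to 8.32 among YFP+ arrays and from 7.84 to 8.65 among wild-type arrays, with 7.18 and 6.59 in marrow. Of 6 other receptor subunits, 0 were higher and 3 lower in both: Il2rb (−2.60 and −2.80 for YFP+ and wild type), Il2ra (−2.08 and −2.09) and Il21r (−1.22 and −1.43), all carried by lymphocytes. Of 6 measured JAK and STAT genes, Stat2, a mediator of interferon signals, rose by 0.85 and 1.63, Stat4, which acts downstream of interleukin 12, fell by 3.09 and 3.12, and the others were not called.

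Negative regulators of JAK-STAT signalling moved both ways. Of 20 genes, 4 were higher and 5 lower in YFP+ cells, and 5 and 4 in wild-type cells, with medians of −0.32 and −0.12. Socs2, an inhibitor induced by STAT5, read 8.84, 8.55 and 7.85 in YFP+, 9.05, 9.45 and 8.39 in wild-type, and 4.63 and 4.15 in marrow arrays. The groups were far apart, and Socs2 rose by 4.02 (SE 0.38, adjusted p 0.000142) and 4.57 (adjusted p 6.37e-05). Socs3 (2.50 and 2.74), Socs5 (1.47 and 1.27) and the ubiquitin ligase Cblb (1.27 and 1.38) were also higher in both. The lower genes included Ptprc and Ptpn6 (−3.86 and −4.15), phosphatases of blood cells, and Cbl (−2.62 and −1.89) and Sh2b3 (−1.10 and −0.77).

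Among 12 STAT5 targets and survival genes, 1 was higher and 6 lower in YFP+ cells, and 2 higher and 5 lower in wild-type cells, with medians of −0.91 and −0.67. The higher genes were Socs2 and, in wild-type cells, Cish (1.63, adjusted p 0.0336), another inhibitor that STAT5 induces. Cish read 7.18, 5.96 and 5.77 in YFP+, 6.63, 7.11 and 6.08 in wild-type, and 4.91 and 5.04 in marrow arrays. All sorted arrays exceeded marrow, but the YFP+ difference of 1.33 (adjusted p 0.0619) was not called. The lower genes included the cytokine Osm (−4.65 and −4.84), the survival factor Mcl1 (−1.84 and −1.55), the cyclin Ccnd3 (−1.67 and −1.80) and the kinase Pim2 (−1.16 and −1.28). Without marrow array 1 or 2 the 7 calls in each comparison became 4, and also without wild-type array 1 for wild-type cells.

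The PI3K-FOXO arm, which the receptor also engages, had 2 of 13 measured genes higher and 5 lower in YFP+ cells, and 2 and 4 in wild-type cells. The regulatory subunits Pik3r1 (1.68 and 1.71) and Pik3r2 (0.76 and 0.90) rose. Of the catalytic subunits, Pik3ca was not called (0.40 and 0.15). The catalytic subunits Pik3cb (−3.18 and −3.37) and Pik3cd (−3.16 and −3.41) and the lipid phosphatase Inpp5d (−4.16 and −4.27) fell. Pik3cd and Inpp5d are known chiefly from blood cells, and the lymphoid and myeloid marker sums above moved with them; the part of those cells was not tested.

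Other stromal factors of B lymphopoiesis accompanied Il7: 6 of 10 were higher and 3 lower in YFP+ cells, and 6 and 2 in wild-type cells, with medians of 1.80 and 2.27. Kitl, the ligand of Kit, was 7.35 and 7.29 log2 units higher than in marrow, and Cxcl12, which retains lymphoid precursors, 6.90 and 6.96. Tnfsf11 (3.70 and 3.69) and Vcam1 (3.14 and 3.28) were also higher. Bst1 (−3.94 and −3.91), the B cell survival factor Tnfsf13b (−2.23 and −1.89) and, in YFP+ cells, Lgals1 (−1.26) were lower.

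Called genes of these lists against total marrow, 38 in YFP+ and 35 in wild-type cells with the gate genes, had the same sign under all scalings tried. Between YFP+ and wild-type cells 0 list genes were called. In the YFP- array, Socs6, an adaptor that restrains receptor kinases, was lower than in YFP+ (−1.92, adjusted p 0.0395) and lower than in wild-type cells (−1.84, adjusted p 0.0434) after loess. Ccnd2, a cyclin and STAT5 target, fell by 1.16 and 1.47 in the same comparisons, and Stat2 fell by 1.40 relative to wild type. Myc (1.89) and Akt2 (2.22) were higher than in YFP+ cells. Flt3l, a growth factor of lymphoid precursors, was lower than in wild-type cells (−1.22). Bst1 (0.91 against YFP+, 0.76 against wild type) and Pik3cd (0.80 against wild type) were called higher, but each had the opposite sign under 1 of the scalings. As deposited, both lay below 4.43 on every sorted array. After loess they read 3.97 (Bst1) and 4.51 (Pik3cd) in the YFP- array. Both signals are thus near the low end of the scale, and the arrays do not resolve these rises. Against marrow, the YFP- array had 4 negative regulators higher and 4 lower of 20, 2 STAT5 targets higher (Socs2, and Myc at 1.24, whose sign turned under 1 of the scalings) and 5 lower of 12, and 5 stromal factors higher and 2 lower of 10.

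**Figure D3:**
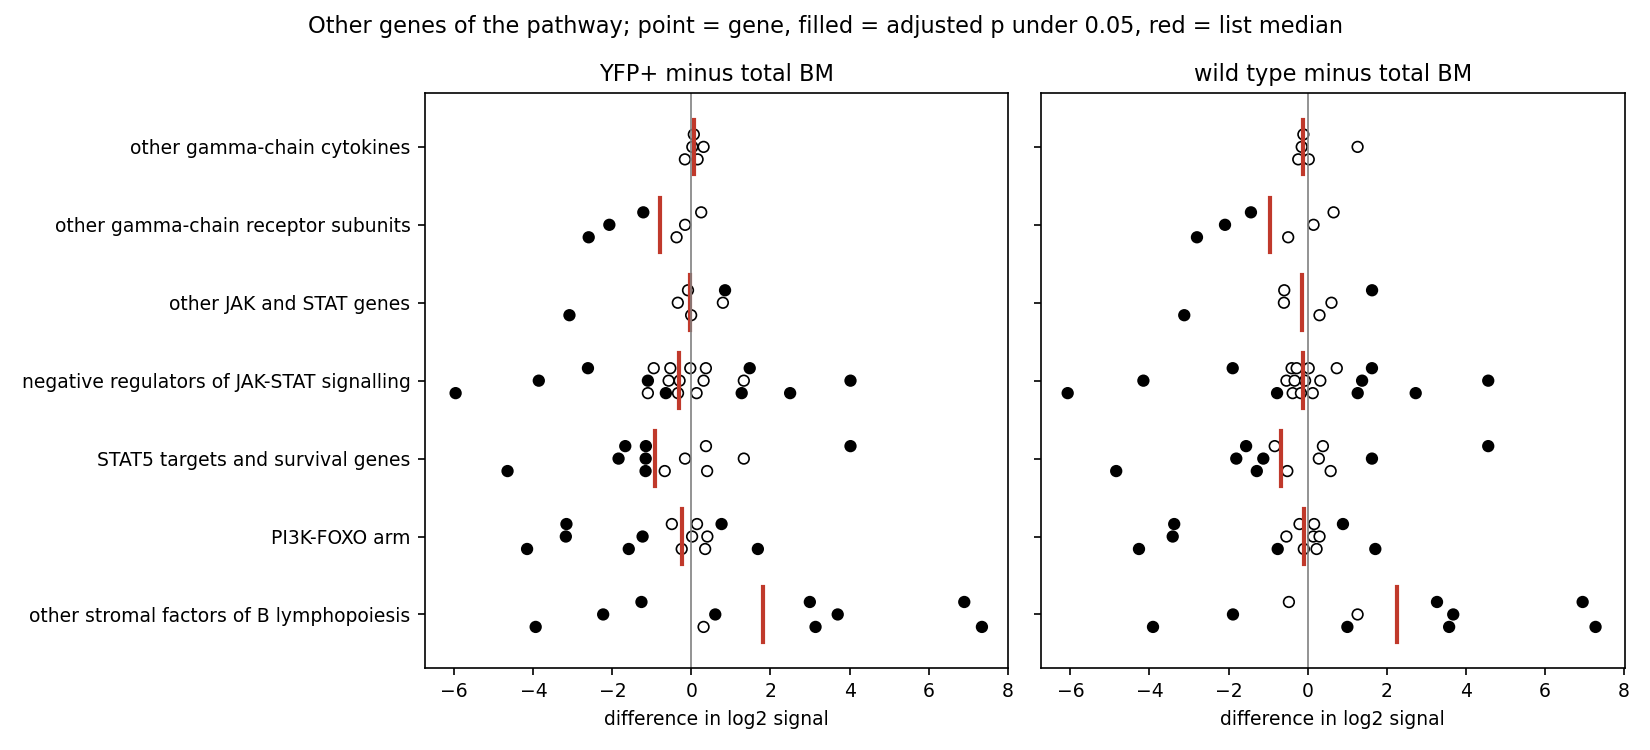
Log2 difference from total marrow of each measured gene of the pathway lists, for YFP+ and wild-type cells, with filled points for genes called at an adjusted p under 0.05 and a red line at each list's median. Stromal factors reach 7.35 (Kitl) and lymphocyte receptor subunits reach −2.80 (Il2rb). No other gamma-chain cytokine was called, and Il2, Il4, Il9 and Il21 lay below 4.43, the median of all deposited values, on every array.

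Profiles most like those of Il7 and Il7r were ranked over the 8 arrays other than YFP-, among 18324 genes, by the root mean square difference between profiles each less its own mean. The nearest to Il7 were Ppic (0.205 log2 units), Cpxm1 (0.248), Fam20a (0.266), Cbr3 (0.284) and Klhl13 (0.286), against a median of 1.89 over all genes compared. The nearest to Il7r were St8sia4 (0.0996), Klra2 (0.1001), Cd3d (0.116), Pou2af1 (0.116) and Cdca8 (0.124), against a median of 1.93. Cd3d, a T cell receptor subunit, and Pou2af1, a B cell coactivator, are genes of lymphocytes. The likeness is a description over 8 arrays that share the contrast between sorted cells and marrow.

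**Figure D4:**
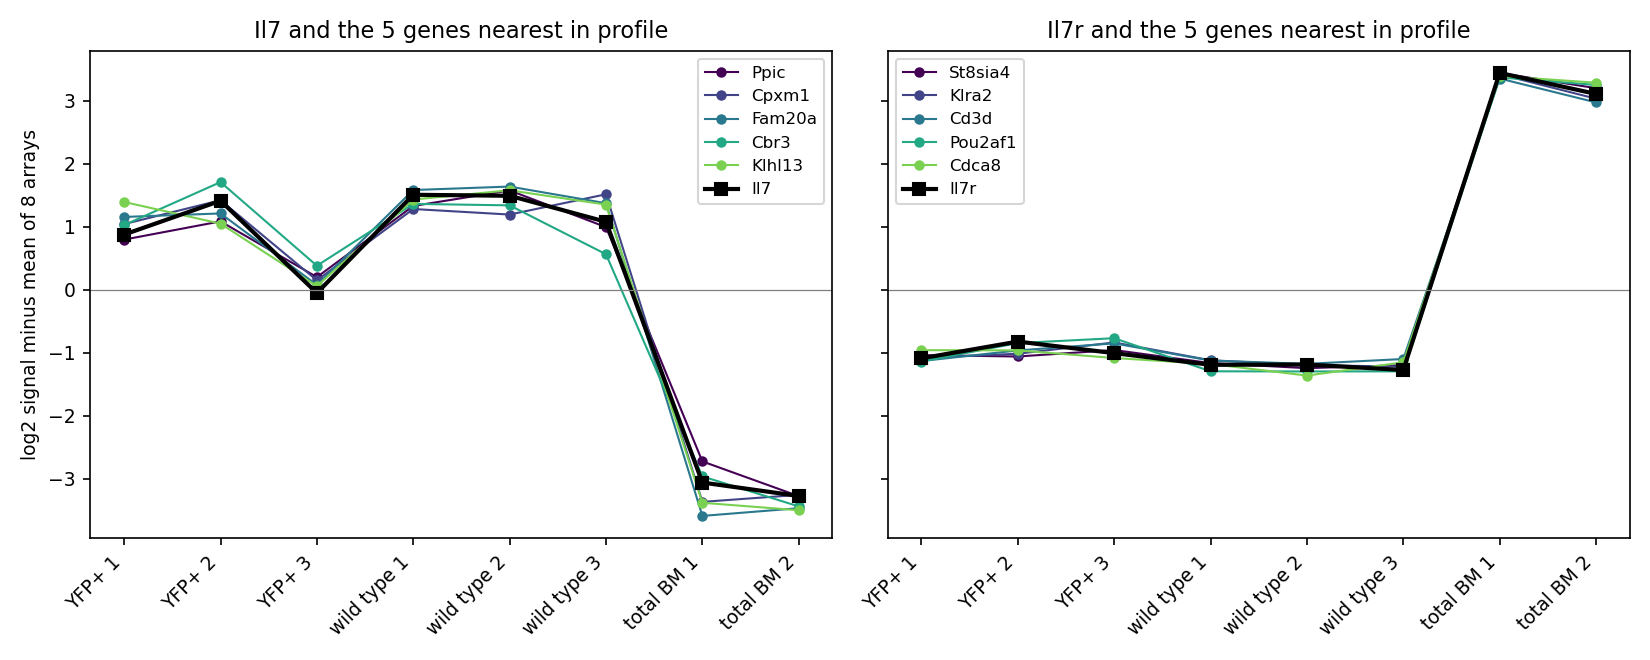
Log2 signal less each gene's mean over 8 arrays, for Il7 and Il7r with the 5 genes nearest to each, by array. Lines only guide the eye, since arrays have no order; the profiles follow the step between sorted cells and marrow, with root mean square differences of 0.205 to 0.286 for Il7 and 0.0996 to 0.124 for Il7r.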

How the data were processed

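The authors deposited log2 signal for each transcript cluster, produced with Affymetrix Expression Console 1.3.1 and RMA per the submitters' processing notes. RNA was amplified with NuGEN Ovation Pico WTA System V2 per the labels' protocols. Whether all arrays were summarised together is not given in the sources used here. The file has 35556 rows; the 21789 with 1 gene symbol in the platform annotation were tested, unfiltered. All 9 arrays were fitted together by group in limma 3.58.1 (R 4.3.3) with empirical Bayes variances, two-sided p-values adjusted by Benjamini-Hochberg over all rows and a call at an adjusted p under 0.05. Comparisons with the YFP- array used cyclic loess values, a choice made with earlier results known. Differences are log2. Marker sums are linear signals after loess. The number of arrays limits the precision. The members and lists were chosen with earlier results of these data known. Named genes were the members, the gate genes, up to 4 called genes per list and direction with the largest change (up to 2 with the smallest p where none was called), and the 5 nearest profiles. The script was tested on simulated data with 200 changed rows. For a change of 1 log2 unit it recovered 41% to 48.5% of them in comparisons without the YFP- array. With that array it recovered 17.5% against YFP+, 16% against wild type and 0% against marrow. For 2 log2 units it recovered 72% to 89.5%. A missing call for a change near 1 log2 unit therefore does not show that the change is absent. The shares recovered need not hold for the data. Against marrow 24.3% to 29.5% of rows were called, far more than 200 of 21789. The simulation also used deposited values, where the YFP- comparisons used loess values. Alternatives changed the scaling, filter, rows, variance prior, array weights, arrays fitted and replicate block.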

Additional observations from a re-analysis of the deposited data

How the results depend on the processing

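Il7 and Il7r kept their direction and call against total marrow under all alternatives run: Il7 at 3.58 to 4.31 (YFP+) and 4.39 to 4.79 (wild type), Il7r at −4.41 to −4.08 and −4.66 to −4.23. Member calls against marrow ranged from 2 to 4 for wild type with 1 array left out, with 2 without marrow array 1. For YFP- against YFP+ (1 call), 6 were called as deposited, 0 with only the arrays of the 2 groups, and 1 to 2 with 1 array left out. For YFP- against wild type (1 call), 6 were called as deposited, 3 with each array centred on its median, 2 with only the 2 groups, 2 with array weights, and 0 to 1 with 1 array left out. For YFP- against marrow (2 calls), 4 were called as deposited and 4 with median centring. As deposited, the median of all rows was −0.91, −0.88 and −0.85 in these 3 comparisons, and 0.15, 0.06 and 0.10 with median centring. Stat5a against wild type was called with median centring (adjusted p 0.037), only the 2 groups (0.044) and array weights (0.027). It was also called as deposited (−3.89). The cause of these changes was not tested.

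The replicate numbers did not pair the samples: deviations of same-numbered samples correlated at −0.08 to 0.06 over 7 pairs. With the replicate block, 0 members were called for YFP- against YFP+ and 0 against wild type, since Stat5b had adjusted p of 0.089 and 0.086.

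Of 540 member values under alternatives, 19 reversed, all for differences not called. Against marrow in YFP+ cells Jak1 was 0.022 with loess. In wild-type cells Jak1 was 0.25 with loess, 0.18 with quantile normalization, 0.11 with the replicate block and 0.10 without wild-type array 1 (−0.094 to 0.10 with 1 array left out), and Crlf2 was −0.024 without wild-type array 1 (−0.024 to 0.13). Between YFP+ and wild type, Stat5b was 0.085 with loess and 0.050 with quantile normalization. For YFP- against YFP+, deposited values gave −0.80 for Il7r and −0.36 for Jak1, Tslp was 0.19 with median centring and 0.042 without YFP+ array 1 (−0.24 to 0.042), and Il7 was 0.19 without YFP+ array 2 (−0.48 to 0.19). Against wild type, deposited values gave −0.55 for Il7r and −0.85 for Jak1. Against marrow they gave −0.56 for Tslp and −0.87 for Jak1, and Tslp was −0.082 with the replicate block and −0.080 without marrow array 2 (−0.080 to 0.29). The list counts moved by over 1.5 times in 101 of 624 cases, 21 of them as deposited. Tslp was not tested under the filter on dim rows. Fits without the YFP- array were added after seeing the data. Signals near the low end of the scale limit Tslp, Il2, Il4, Il9 and Il21 throughout, Il7 in marrow, and Il7r, Bst1 and Pik3cd in sorted cells.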
